A study of Mus musculus with 4 samples.

Results

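The potassium, calcium and sodium channel genes were taken by name from the 4 gene tables: symbols that start with Kcn, further letters and a digit, symbols that start with Cacna, Cacnb or Cacng, and symbols of the form Scn, a number and a or b. The rule found 136 genes among 24319 gene names, 97 of potassium, 26 of calcium and 13 of sodium channels, and each had a single row in every table. Of these, 132 are protein-coding in GENCODE M21 and 4 are noncoding genes that carry a channel name (Kcnq1ot1, Kcnd3os, Kcnmb4os1 and Kcnmb4os2). The brain sodium channel Scn2a is listed as Scn2a1 and so falls outside the rule; it was listed at 0 in each normal prostate and stood at 2.34 and 1.14 in the tumour pair (adjusted p = 0.0607).

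RNA-seq was made of 2 normal prostates from wild-type mice and of 2 prostate tumours from TRAMP mice, which express the SV40 T antigen from a rat probasin promoter, a promoter active in prostate epithelium. All mice were males of a C57BL/6 by FVB cross, 22 weeks old for the normal prostates and 24 weeks for the late-stage tumours (24 to 28 weeks in the treatment protocol), and the transgenic males were heterozygous. Whole dissected tissue was used, so each library mixes cell types. The labels do not state that the samples of a group came from different mice, so p-values reflect only how far these samples spread.

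Voltage-gated potassium channels (Kv) are built from pore-forming alpha subunits and auxiliary subunits and return an excited membrane to rest, while tandem-pore (K2P) channels leak potassium at rest and inward rectifiers (Kir) hold the resting potential. Voltage-gated calcium channels (Cav) join a pore-forming alpha1 subunit to alpha2delta and beta subunits and admit the calcium that drives contraction and the release of transmitters and hormones, and sodium channels (Nav) raise the action potential of neurons and muscle. In prostate, smooth muscle uses L-type calcium and large-conductance potassium channels, and epithelium carries background potassium channels.

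Levels are given as FPKM, fragments set against transcript length and library size, after division of each library by a median-of-ratios factor, and levels of different genes can be compared per length on this scale. Log2 fold changes are tumour minus normal on the log2(scaled FPKM + 1) scale, with the standard error (SE) and a limma p adjusted over all genes tested by Benjamini-Hochberg, with a threshold of 0.05. The scaling factors ran from 0.689 to 1.503, which moves the groups by 0.94 (log2) against each other, and the median log2 fold change of all genes tested was 0.07 with scaling and 0.86 with FPKM as deposited. The fragments implied by the width of the Cufflinks intervals summed to between 985509 and 1578850 per library. Over all genes tested, 9.85% rose and 8.27% fell. Neuroendocrine markers summed to 5.94 and 3.87 in the normal prostates and to 672 and 950 in the tumours (8 of 9 tested rose). Neuronal markers summed to 8.34 and 7.18 against 559 and 252 (9 of 10 tested rose). Testing required an unscaled FPKM of 1 or more in 2 or more libraries. The tumours alone met this for 8 of the 9 and 8 of the 10, which selects for a rise. Untested Foxa2 and Pcsk1, both neuroendocrine, stood at 55.0 and 29.7 in tumour 2 and at 0 in tumour 1 and normal tissue. Neurod1, also untested, stood at 1.80 and 0.424 in the tumours. Luminal markers summed to 8640 and 8229 against 326 and 1625 (3 of 8 fell, and 4 of 8 were listed at 0 in tumour 1), mostly Pbsn, at 7022 and 6280 against 0 and 14.2. Smooth muscle markers summed to 646 and 600 against 23.5 and 124 (1 of 8 fell, and 3 of 8 were listed at 0 in tumour 1). Macrophage markers summed to 19.1 and 15.2 against 169 and 517 (3 of 7 rose), and skeletal muscle markers to 48.3 and 46.3 against 12.4 and 44.4 (0 of 4 tested passed).

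Normal prostate used few channel genes, and the tumours used many at low to moderate levels. Of the 136 genes, 22 and 20 had a scaled FPKM of 1 or more in the normal prostates, and 47 and 59 did in the tumours. Over all gene names the same level was reached by 47.2% and 46.7% in the normal prostates and by 48.5% and 54.2% in the tumours. The channel genes together summed to 351 and 374 in the normal prostates and to 412 and 349 in the tumours, so the groups overlapped in their sum. In the normal prostates 3 genes, Kcnk1, Kcnk3 and Cacnb3, held 72.4% and 77.5% of that sum. In tumour 1 the 3 highest genes, Kcnmb2, Cacng7 and Scn3a, held 31.3%, and in tumour 2 the 3 highest, Kcnk1, Cacng7 and Cacna2d1, held 22.8%. The channel genes rested on 982 and 1556 implied fragments in normal tissue and on 3985 and 2468 in the tumours.

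**Figure D1:**
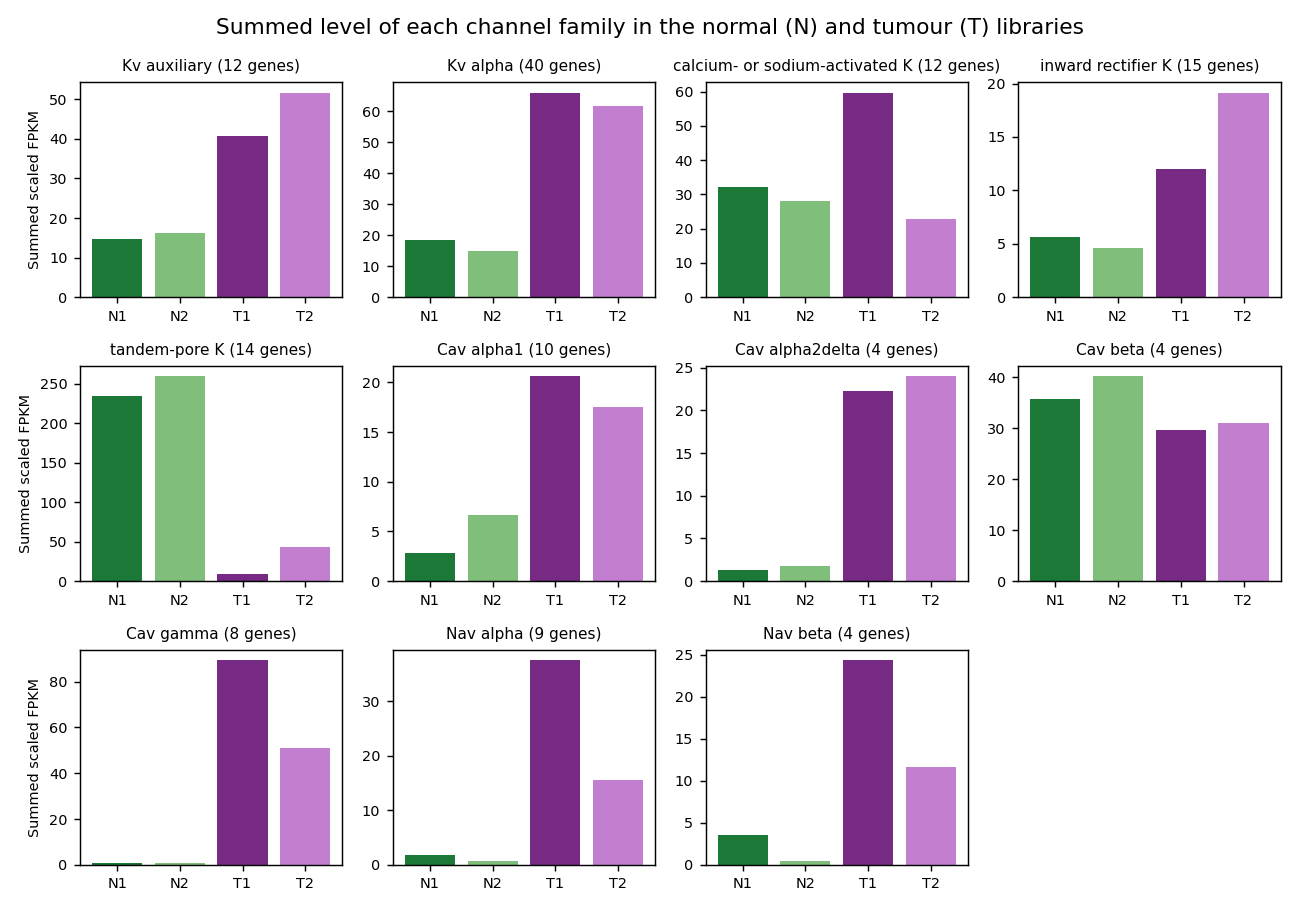
Summed scaled FPKM (y axis, from 0) of the genes of each channel family in each library (bars, normal prostates N1 and N2, tumours T1 and T2). The tandem-pore family is high in both normal prostates (234 and 259) and low in the tumours (9.06 and 42.8), and the Cav gamma family goes from 0.804 and 0.806 to 89.3 and 51.0.

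Of the 136 genes, 25 were listed at 0 in all 4 libraries (18.4%, against 29.8% of all gene names), and 49 reached the filter for testing, an unscaled FPKM of 1 or more in 2 or more libraries. After adjustment 15 of the 49 were higher in the tumours, where 9.85% of all 13162 genes tested were higher, and 3 were lower, where 8.27% of all were lower. Before adjustment, 26 higher and 5 lower of the 49 had a limma p under 0.05, against 2830 higher and 2412 lower of all 13162 genes tested. The count of higher genes cannot be read as a property of the family, because 26 of the 49 tested genes met the filter in the tumours and not in normal tissue, which selects for a rise, against 13.8% of all genes tested, and 14 of the 15 higher genes were among these 26. Of the 3 lower genes Kcnk3 reached an unscaled FPKM of 1 in all 4 libraries. Kcnn4 and Kcnk6 reached it in both normal prostates and in tumour 2, but not in tumour 1. For Kcnn4 and Kcnk6 the normal prostates were enough to meet the filter and the tumours were not, which favours a fall. Without any filter, both tumours lay above both normal prostates in 51 of the 136 genes (37.5%, against 23.4% of all gene names) and below both in 10 (7.35%, against 19.6%), while the groups overlapped or were all at 0 in 75. With FPKM as deposited 22 channel genes were higher, where 28.0% of all genes were, and 1 was lower, where 3.24% were, so that the share of higher among the called channel genes went from 83.3% to 95.7%, and among all called genes from 54.4% to 89.6%. Without normal 1 or without normal 2, limma called 0 channel genes and 0 genes of all tested in either direction, and 14 higher and 3 lower channel genes had an unadjusted p under 0.05 in each case.

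**Figure D2:**
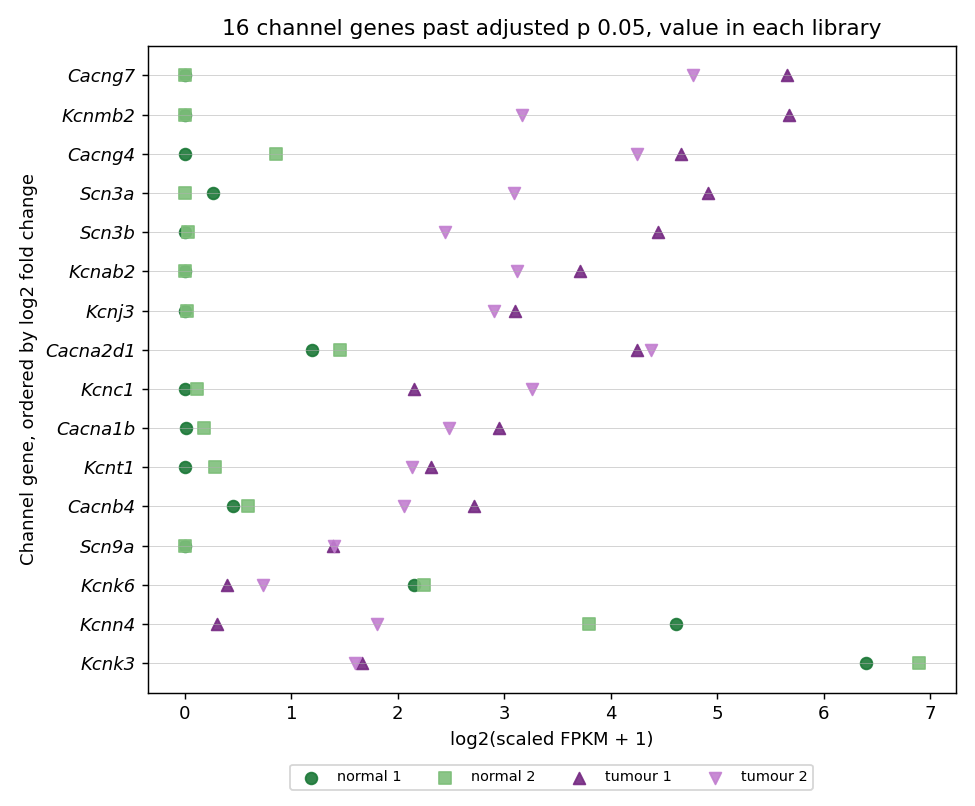
Value of log2(scaled FPKM + 1) (x axis) in each library (points, 2 normal prostates and 2 tumours) for 16 of the 18 channel genes past the threshold (y axis, ordered by log2 fold change). In the 13 higher genes shown both tumours lie to the right of both normal prostates, and in Kcnk6, Kcnn4 and Kcnk3 both tumours lie to the left.

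The highest channel genes of normal prostate by mean level, Kcnk1 and Kcnk3, encode tandem-pore potassium channels. Of the 4 tested genes of this family Kcnk3 and Kcnk6 fell and Kcnk1 and Kcnk5 did not pass, where 8.27% of all genes tested were lower. Kcnk3, an acid-sensitive background channel (chromosome 5, 30588170 to 30625270), stood at 83.2 and 118 in the normal prostates and at 2.18 and 2.02 in the tumours. The tumours lay close together and far below both normal prostates, and Kcnk3 fell by 5.01 log2 units (SE 0.34, adjusted p = 0.0195), a ratio of 32.3 on that scale. Implied fragments numbered 278 and 516 in normal tissue and 17.8 and 14.1 in the tumours. The fall was called in all 8 other settings that used all 4 libraries, FPKM as deposited among them, and also with either tumour left out. The gene Gm9899 lies on the opposite strand within the same region, and no source used here gives the counting strand.

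Kcnk1, a weakly conducting tandem-pore channel of epithelia (chromosome 8, 125995102 to 126030688), had the highest level of all channel genes in normal prostate, 146 and 136. It stood at 2.75 in tumour 1 and 33.4 in tumour 2. Both tumours were below both normal prostates, but they differed from each other 12.1-fold, and the log2 fold change of -3.64 (SE 1.06) did not pass (adjusted p = 0.0723, and 0.0486 to 0.130 over the 8 other settings with all libraries). Kcnk6, a channel of the same branch (chromosome 7, 29221928 to 29232522), stood at 3.45 and 3.74 in the normal prostates and at 0.319 and 0.667 in the tumours. It fell by 1.63 (SE 0.38, adjusted p = 0.0476), on 3.0 and 3.9 implied fragments in the tumours. The call was lost in 6 of the 8 other settings, FPKM as deposited among them (adjusted p from 0.0438 to 0.0874 over the 8). Kcnk5, an alkaline-activated relative, stood at 0.589 and 1.40 against 1.44 and 1.38 and the groups overlapped (adjusted p = 0.593). The other 10 tandem-pore genes were too low to be tested, and 6 of them were listed at 0 in all 4 libraries. As a sum, the tandem-pore genes went from 234 and 259 in the normal prostates to 9.06 and 42.8 in the tumours, with the same direction in FPKM as deposited. In whole tissue, fewer cells of a type and less RNA per cell cannot be told apart. Tumour 1, the lower tumour for Kcnk1, also had the lowest luminal marker sum and the lowest level of each luminal marker except Cd24a, which stood at 163 and 188 against 305 and 686 (adjusted p = 0.0863). In tumour 2 the luminal marker Krt8, at 438, was above both normal prostates (178 and 191). The part of these markers in the result was not tested.

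**Figure D3:**
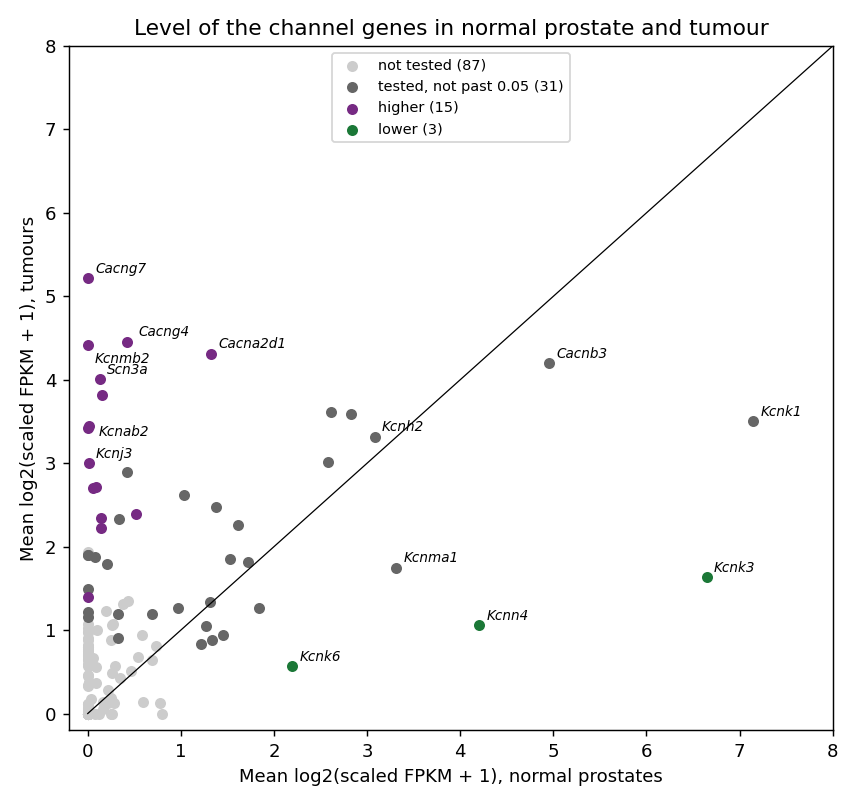
Mean log2(scaled FPKM + 1) of each of the 136 channel genes in the normal prostates (x axis) and the tumours (y axis), coloured by the limma call, with a line of equal level. The 15 higher genes stand near 0 on the x axis except Cacna2d1, and Kcnk1, Kcnk3 and Kcnn4 stand far to the right of the line.

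Calcium-activated potassium channels went both ways. Kcnn4, the intermediate-conductance channel of epithelia and lymphocytes (chromosome 7, 24370263 to 24385212), stood at 23.4 and 12.8 in the normal prostates and at 0.236 and 2.50 in the tumours. Both tumours were lower, and it fell by 3.14 (SE 0.67, adjusted p = 0.0413), on 0.4 and 7.3 implied fragments in the tumours. The log2 change ran from -4.50 to -2.31 over all settings, and the call was lost in 5 of the 8 other settings, FPKM as deposited among them (adjusted p from 0.0349 to 0.0781 over the 8). The summed T and NK cell markers, from cells that carry this channel, came to 2.90 and 1.33 in normal tissue and 0.183 and 0.780 in the tumours. None of the 5 markers was high enough to be tested, and each normal value rested on 2.0 implied fragments or fewer. Nkg7 was listed at 0 in all 4 libraries, Cd3e in normal 2 and both tumours, and Cd8a in both tumours. Among epithelial markers, the luminal sum went from 8640 and 8229 to 326 and 1625 (3 of 8 fell), although Cd24a was higher in both tumours. The basal sum went from 72.8 and 71.1 to 0 and 24.6 (1 of 3 tested fell). The part of any of these cells in the fall of Kcnn4 was not tested. Kcnma1, the pore of the large-conductance channel (chromosome 14, 23298694 to 24004205), stood at 7.06 and 11.3 in the normal prostates and at 1.43 and 3.65 in the tumour pair. Its log2 fold change of -1.56 (SE 0.53) did not pass (adjusted p = 0.0966), and no other setting with all libraries called it. Its smooth muscle partner Kcnmb1 was near 0 in all 4 libraries, at 0.0779 and 0.316 in the normal prostates and at 0 and 0.285 in the tumours, although the smooth muscle markers named above were abundant in normal prostate.

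The partner that appeared in the tumours was another one. Kcnmb2, an auxiliary subunit that inactivates the large-conductance channel (chromosome 3, 31902703 to 32200180), was listed at 0 in each normal prostate and stood at 50.2 in tumour 1 and 7.96 in tumour 2 (adjusted p = 0.0382). It was the highest channel gene of tumour 1, on 323 implied fragments, and its call was lost by quantile normalization, by voom and with no filter (adjusted p from 0.0250 to 0.0736 over the 8 other settings). Kcnt1, a sodium-activated potassium channel (chromosome 2, 25863795 to 25918273), was listed at 0 and at 0.220 in the normal prostates and stood at 3.97 and 3.40 in the tumours. It rose (adjusted p = 0.0309), with at most 1.0 implied fragments behind each normal value, a call lost by quantile normalization and without the filter. The small-conductance channel Kcnn2 was listed at 0 in the normal prostates and stood at 0.896 and 1.85 in the tumours, and Kcnn3 stood at 0.251 and 0.255 against 1.62 and 0.984; neither passed (adjusted p = 0.0753 and 0.133). In all, 2 of the 8 tested genes of this family rose, 1 fell and 5 did not pass (9.85% higher and 8.27% lower over all genes tested). Of the 8, 5 met the filter in the tumours alone, both higher genes among them. The summed level of the family overlapped between the groups (32.1 and 28.2 against 59.7 and 23.0).

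Among the 40 Kv alpha genes, 8 could be tested, 3 rose and 0 fell, against 9.85% higher and 8.27% lower of all genes tested. Of the 8, 4 met the filter in the tumours alone, which selects for a rise, and all 3 higher genes were among these 4. Kcnc1, a fast delayed rectifier of high-frequency neurons (chromosome 7, 46396468 to 46438704), was listed at 0 and at 0.0831 against 3.44 and 8.56 (adjusted p = 0.0347). Here tumour 2 was the higher one, and the call was lost by quantile normalization and without the filter.

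The Kv alpha genes that normal prostate already expressed did not pass. Kcnh2, the channel of cardiac repolarization (chromosome 5, 24319589 to 24351604), led this group in normal prostate at 7.16 and 7.79 and stood at 8.71 and 9.23 in the tumour pair. The log2 difference was 0.23 (SE 0.36, adjusted p = 0.654) and was positive in all settings run. Kcnq1, an epithelial and cardiac channel (chromosome 7, 143107254 to 143427042), stood at 2.31 and 2.90 in the normal prostates, was listed at 0 in tumour 1 and stood at 4.81 in tumour 2, so the tumours stood on either side of normal prostate (adjusted p = 0.663). Kcnq1ot1, the imprinted antisense RNA within Kcnq1, lay between 0.293 and 0.481 in all 4 libraries and was not tested. Both share a region on opposite strands, and no source used here gives the counting strand, so how reads of the shared region were assigned is not known. Kcnh6 was the 1 channel gene that reached 5 in a single tumour with under 1 elsewhere: it was listed at 0 in the normal prostates and stood at 0.623 in tumour 1 and 8.07 in tumour 2, on 43.4 implied fragments. As a sum the Kv alpha genes stood at 18.4 and 15.03 in the normal prostates and at 66.1 and 61.8 in the tumours.

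Of the auxiliary Kv genes 6 of 12 were tested, 1 rose and 0 fell, against 9.85% higher and 8.27% lower of all genes tested. Of the 6, 2 met the filter in the tumours alone, the 1 higher gene among them. Kcnab2, a cytoplasmic beta subunit (chromosome 4, 152390740 to 152477549), was listed at 0 in each normal prostate and stood at 12.1 and 7.72 in the tumour pair (adjusted p = 0.0208), a call kept in all 8 other settings. It overlaps Nphp4 on the opposite strand. Kcnip3, a calcium-binding partner of Kv channels that also acts as a transcriptional repressor, had the highest mean of this family in each group, at 6.21 and 5.94 in normal prostate and 8.18 and 14.8 in tumour (adjusted p = 0.245). Kcnab3 was close to it at 4.39 and 5.94 against 10.4 and 12.1 (adjusted p = 0.124), and in tumour 1 both Kcnab2 and Kcnab3 were above Kcnip3. Kcne3, a small single-pass partner of Kcnq1 in epithelia, was listed at 0 in the normal prostates and stood at 1.34 and 4.91 in the tumours on 0.9 and 6.8 implied fragments (adjusted p = 0.0700). Of the 15 inward rectifiers 3 were tested and 1 rose, the 1 gene of the 3 that met the filter in the tumours alone. Kcnj3, a subunit of the channels opened by G-protein coupled receptors (chromosome 2, 55435970 to 55598145), was listed at 0 and at 0.0119 in the normal prostates and stood at 7.58 and 6.49 in the tumour pair (adjusted p = 0.0210), again a call kept in all 8 other settings. Its normal value rested on under 1 implied fragment. Kcnj2, the classical inward rectifier and the highest of the family in normal prostate, stood at 2.31 and 2.28 against 0.709 and 6.302 (adjusted p = 0.934), with its sign depending on the setting. Kcnj11, the pore of the ATP-sensitive channel of beta cells, stayed under 1 in all 4 libraries, at 0 and 0.511 in normal tissue and 0.852 and 0.197 in the tumours. Its beta cell partner Abcc8 was listed at 0 in each normal prostate and stood at 4.18 and 0.716 in the tumour pair (adjusted p = 0.124).

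Of the calcium channel pores, Cacna1b was the one that passed. Cacna1b, the N-type channel of nerve terminals (chromosome 2, 24603889 to 24763152), stood at 0.00490 and 0.133 in the normal prostates and at 6.71 and 4.58 in the tumours. It rose (adjusted p = 0.0254), on 1.2 implied fragments or fewer in each normal prostate against 148 and 84.9, and the call was lost with no filter on levels (adjusted p = 0.0541, and 0.0178 to 0.0541 over the 8 other settings). Cacna1a, the P/Q-type channel that shares this role, was listed at 0 and at 0.582 against 2.78 and 5.68 and missed the threshold (adjusted p = 0.0529, and 0.0311 to 0.0923 over the 8). It passed with FPKM as deposited and when scaled by FPKM totals that omit genes holding over 1% of a library. Cacna1c, the L-type channel of heart and smooth muscle (chromosome 6, 118587240 to 119196409), stood at 0.0748 and 0.235 in normal tissue and at 3.65 and 1.56 in the tumour pair (adjusted p = 0.0658). The groups did not overlap in Cacna1c. Of the 8 smooth muscle markers Myh11 alone passed, at 32.0 and 27.6 against 0 and 4.03 (adjusted p = 0.0440). The other 7 did not pass. Smtn stood at 12.3 and 10.3 against 19.3 and 9.81 (log2 fold change 0.27, adjusted p = 0.670). Acta2, Tagln, Cnn1, Des, Actg2 and Lmod1 had log2 fold changes of -4.28, -4.30, -4.79, -3.48, -3.98 and -1.28. In each of these both tumours lay below both normal prostates. The part of smooth muscle in the level of Cacna1c was not tested. Cacna1d, the L-type channel of endocrine cells, led the pores in normal prostate at 1.21 and 2.75 and stood at 3.35 and 2.01 in the tumours, and the T-type Cacna1h stood at 0.934 and 2.21 against 0.881 and 2.38. In both genes the groups overlapped (adjusted p = 0.637 and 0.984).

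The auxiliary calcium channel subunits showed the clearest rise that rested on reads in both groups. Cacna2d1, the alpha2delta subunit bound by gabapentin (chromosome 5, 15934691 to 16374511), stood at 1.29 and 1.75 in the normal prostates and at 17.998 and 19.8 in the tumours. The tumours agreed closely with each other and lay far above normal prostate, and Cacna2d1 rose by 2.99 (SE 0.39, adjusted p = 0.0216), a ratio of 7.92 on that scale. It rested on 7.3 and 16.6 implied fragments in normal tissue and on 279 and 254 in the tumours. It was the 1 higher channel gene that reached the filter in both groups, and it was called in all 8 other settings that used all 4 libraries. The log2 change ran from 2.85 to 3.72 over all settings, those with 1 library left out among them. Cacna2d2 was listed at 0 in the normal prostates and stood at 4.28 and 1.65 in the tumour pair (adjusted p = 0.0514, and 0.0300 to 0.189 over the 8).

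The beta subunits, which carry alpha1 to the membrane, differed among themselves. Cacnb3 (chromosome 15, 98632328 to 98644536) led in both tissues, at 25.2 and 35.8 in the normal prostates and at 17.1 and 17.6 in the tumours, and its log2 fold change of -0.76 (SE 0.32) did not pass (adjusted p = 0.151) and turned to 0.15 with FPKM as deposited. Cacnb4, which is prominent in brain (chromosome 2, 52428320 to 52676609), stood at 0.372 and 0.503 against 5.58 and 3.17. With 1.3 and 3.6 implied fragments in normal tissue it rose by 1.87 (SE 0.42, adjusted p = 0.0461), a log2 change that ran from 1.38 to 3.82 over all settings, and a call lost in 4 of the 8 other settings (adjusted p from 0.0237 to 0.129). Cacnb1 stood at 7.60 and 3.16 against 6.85 and 7.29 and Cacnb2 at 2.45 and 0.698 against 0.114 and 2.86, with overlapping groups. The summed level of the 4 beta genes was 35.6 and 40.1 in normal tissue and 29.7 and 30.9 in the tumours, and the order of the groups turned with FPKM as deposited (28.2 and 27.6 against 39.8 and 46.5).

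The gamma family, most of whose members regulate AMPA-type glutamate receptors rather than calcium channels, went from near 0 to the highest calcium channel values of the tumours. Cacng7 (chromosome 7, 3336585 to 3366948) was listed at 0 in each normal prostate and stood at 49.5 and 26.4 in the tumour pair (adjusted p = 0.0195). Cacng4 (chromosome 11, 107734780 to 107794464) was listed at 0 and at 0.806 in the normal prostates, the second on 1.0 implied fragments, and stood at 24.3 and 18.02 in the tumour pair (adjusted p = 0.0208). Both calls were kept in all 8 other settings. The family lies in clusters: Cacng5, the neighbour of Cacng4, was at 0.804 and 0 against 13.0 and 2.94 (adjusted p = 0.0787), while Cacng1, the skeletal muscle subunit in the same cluster, was listed at 0 in all 4 libraries. Beside Cacng7, Cacng8 was listed at 0 in the normal prostates and stood at 1.75 and 0.413 in the tumours, and Cacng6 was listed at 0 in all 4. Gria2 and Gria4, which encode AMPA receptor subunits, were at 0 and 0 against 18.2 and 5.90 and at 0 and 0.120 against 13.9 and 7.42, and both passed (adjusted p = 0.0301 and 0.0224). Of the other AMPA receptor subunits, Gria3 was at 0.559 and 0 against 2.65 and 6.94 and did not pass (adjusted p = 0.0586), and Gria1 was at 0.361 and 1.22 against 0.0522 and 0.220, too low to be tested.

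The sodium channels were all but silent in normal prostate, where none of the 9 alpha genes reached 1. Scn3a, a channel of embryonic and fetal brain (chromosome 2, 65457118 to 65567492), stood at 0.199 and 0 in the normal prostates, on 2.0 and 0 implied fragments, and at 29.2 and 7.52 in the tumours, on 650 and 144. It rose (adjusted p = 0.0327), a call lost without the filter. Scn9a, a channel of peripheral sensory and sympathetic neurons (chromosome 2, 66480081 to 66634962), was listed at 0 in each normal prostate and stood at 1.63 and 1.65 in the tumour pair (adjusted p = 0.0450), and its call was lost by quantile normalization, without the filter and without the intensity trend. Scn8a, the channel of mature axon initial segments, was listed at 0 and at 0.114 against 4.53 and 1.44 (adjusted p = 0.0681, and 0.0391 to 0.279 over the 8 other settings). Scn1a and Scn7a, which lie in the same cluster as Scn9a, were not tested: Scn1a stood at 0.461 and 0 against 2.21 and 0.381 and Scn7a at 0.914 and 0.354 against 0 and 1.43, with overlapping groups in both.

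Among the sodium channel beta genes Scn3b rose. Scn3b (chromosome 9, 40269216 to 40291618) was listed at 0 and at 0.0177 in the normal prostates and stood at 20.8 and 4.43 in the tumour pair (adjusted p = 0.0430), a call lost by quantile normalization and under both looser filters. Summed over the 9 alpha genes the level was 1.72 and 0.722 in normal tissue and 37.6 and 15.6 in the tumours, and tumour 1 was the higher tumour for Scn3a, Scn3b and Scn8a.

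The tumours differed from each other as widely for channel genes as for other genes. Of the 49 tested channel genes, 17 differed over 2-fold between the tumours on the log2(scaled FPKM + 1) scale (34.7%, against 30.5% of all genes tested), 8 higher in tumour 1 and 9 in tumour 2, and 6 differed over 2-fold between the normal prostates (12.2%, against 8.08%). The genes higher in tumour 1 included Kcnmb2, Scn3a, Scn3b and Cacng5. Those higher in tumour 2 included Kcnk1, Kcnq1 and Kcnj2. Cacna2d1, Kcnh2, Scn9a and Kcnk3 were nearly level between the tumours.

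**Figure D4:**
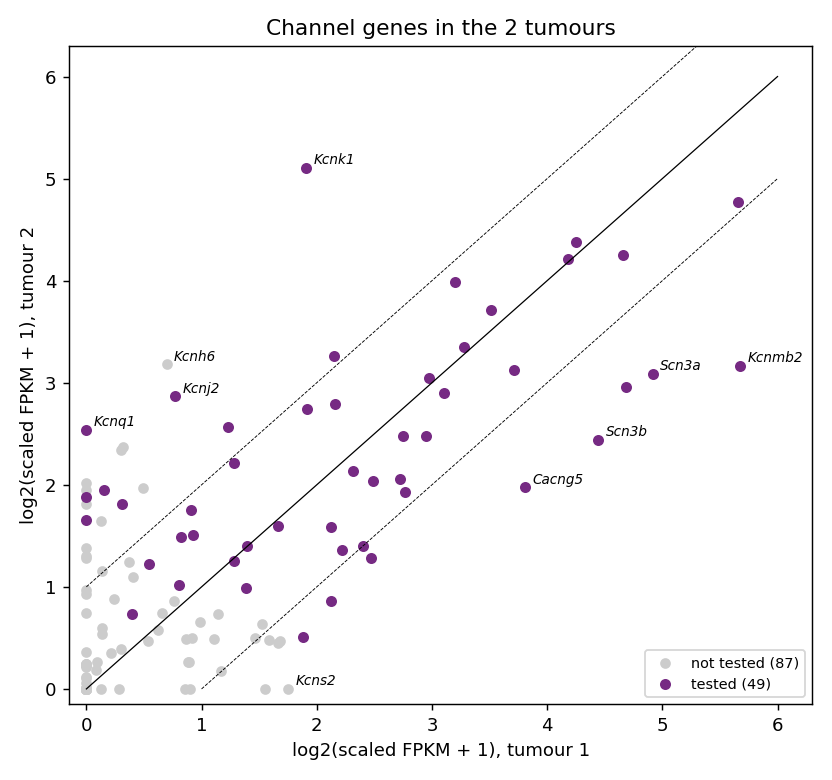
Level of log2(scaled FPKM + 1) of the channel genes in tumour 1 (x axis) and tumour 2 (y axis), 49 tested and 87 not tested, with a solid line of equal level and dashed lines at 2-fold. Kcnk1 lies far above the lines, and Kcnmb2, Scn3a and Scn3b lie below them.

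The 87 genes that were not tested stayed at or below 8.07 in every library. A scaled FPKM of at least 1 was reached in a single tumour and nowhere else by 23 of them and in a single normal prostate and nowhere else by 1. An untested gene reached an unscaled FPKM of 1 in a single library at most, so the filter largely sets the words nowhere else. Over all gene names, too, more reached this scaled level in the tumours (48.5% and 54.2%) than in the normal prostates (47.2% and 46.7%). The counts were not made for all untested genes, so they cannot be read as a property of the channel genes.

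The start sites of several of these genes lie in CpG-rich sequence, which is shown because cytosines followed by guanine are the bases that DNA methylation and hydroxymethylation act on, the subject of the series. The RefSeq promoter table (GRCm38.p6) held 135 windows of 300 bases for 100 of the 136 genes, 9 of the 15 higher genes and, of the lower genes, Kcnn4 alone. CpG numbered 9 per window in the median over all channel windows and 7 over 32841 windows of all genes. The median was 15 over the 13 windows of the 9 higher genes, where Cacnb4 and Kcnab2 have several windows each. It was 12.5 over the 36 windows of channel genes tested and not past the threshold. CpG numbered 42 in Cacna2d1 (chr5:15934441-15934740, plus strand), 41 in Kcnc1 (chr7:46396218-46396517, plus strand), 10 in Kcnj3 (chr2:55435720-55436019, plus strand) and 6 in Kcnn4 (chr7:24370013-24370312, plus strand). The windows read 5′ to 3′ as follows, with each CpG in capitals.
Cacna2d1: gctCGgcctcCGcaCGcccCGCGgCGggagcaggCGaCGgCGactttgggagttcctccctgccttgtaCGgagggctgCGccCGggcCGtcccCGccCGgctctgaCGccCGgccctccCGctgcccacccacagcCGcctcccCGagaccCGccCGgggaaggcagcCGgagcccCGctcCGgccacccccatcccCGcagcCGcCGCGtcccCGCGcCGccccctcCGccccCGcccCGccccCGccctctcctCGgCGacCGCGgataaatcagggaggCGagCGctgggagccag
Kcnc1: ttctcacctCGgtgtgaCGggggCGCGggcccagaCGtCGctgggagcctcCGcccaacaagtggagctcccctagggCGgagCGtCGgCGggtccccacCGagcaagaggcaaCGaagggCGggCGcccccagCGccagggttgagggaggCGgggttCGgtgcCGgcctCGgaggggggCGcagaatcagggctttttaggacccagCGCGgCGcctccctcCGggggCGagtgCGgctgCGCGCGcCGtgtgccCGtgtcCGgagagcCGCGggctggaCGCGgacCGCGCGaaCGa
Kcnj3: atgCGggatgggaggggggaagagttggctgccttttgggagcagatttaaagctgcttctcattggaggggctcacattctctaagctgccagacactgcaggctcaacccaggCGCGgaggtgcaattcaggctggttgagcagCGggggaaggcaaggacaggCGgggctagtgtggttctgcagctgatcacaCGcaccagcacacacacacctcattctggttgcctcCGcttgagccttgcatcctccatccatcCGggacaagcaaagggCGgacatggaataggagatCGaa
Kcnn4: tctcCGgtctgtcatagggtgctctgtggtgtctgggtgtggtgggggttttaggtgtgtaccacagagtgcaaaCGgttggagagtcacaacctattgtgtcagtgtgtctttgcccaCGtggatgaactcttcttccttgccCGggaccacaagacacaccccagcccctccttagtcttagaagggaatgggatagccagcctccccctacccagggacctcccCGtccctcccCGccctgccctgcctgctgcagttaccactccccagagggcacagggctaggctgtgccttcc

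The windows of Cacna2d1 and Kcnc1 hold more CpG than the median window of higher genes, that of Kcnj3 holds fewer than it but more than the median channel window, and that of Kcnn4 holds fewer than the median of all windows. The windows were also searched on both strands for the element of REST, a repressor known for silencing neuronal channel genes outside the nervous system. Its left part CAGCACC followed after 2 bases by its right part GGACAG was found in 0 of 135 channel windows and in 12 of 32841 windows of all genes (0.0365%), and the left part alone in 11 of 135 (8.15%, against 7.14%). The E-box CAGCTG, a palindrome, was found in 37 of 135 channel windows (27.4%, against 16.3% of all windows) and in 3 of the 13 windows of higher genes. The windows cover only the start sites in this table, and a match is letters, not a bound site. Of 6 genes listed for REST and its partners, 2 rose and 0 fell, against 9.85% and 8.27% of all genes tested. Rest itself stood at 1.37 and 1.94 in the normal prostates, was listed at 0 in tumour 1 and stood at 1.91 in tumour 2 (adjusted p = 0.476). Its corepressor Rcor2 stood at 1.54 and 0.696 against 9.35 and 5.90 (adjusted p = 0.0477). Hdac2 stood at 18.6 and 23.8 against 102 and 52.2 (adjusted p = 0.0496). Rcor1, Sin3a and Kdm1a did not pass (adjusted p = 0.0528, 0.129 and 0.835).

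Genes that work with these channels were taken from fixed lists. Over all genes tested, 9.85% were higher and 8.27% were lower (28.0% and 3.24% with FPKM as deposited). Of 30 channel partners and scaffolds 23 were tested, 9 rose, 0 fell and 14 missed the threshold (unscaled FPKM gave 12 and 0), but 16 of the 23 reached the filter through the tumours alone. Fgf14, which binds sodium channels intracellularly, was listed at 0 in each normal prostate and stood at 9.77 and 12.0 in the tumour pair (adjusted p = 0.0195). Unc80 and Unc79, which form a complex with the sodium leak channel, stood at 0 and 0.0473 against 7.39 and 4.16 and at 0 and 0.145 against 5.24 and 3.42, and both passed (adjusted p = 0.0267 and 0.0296). Of 39 other cation channels 24 were tested, 3 rose and 4 fell (7 and 1 with FPKM as deposited), and 8 of the 24 reached the filter through the tumours alone. Hcn2 and Hcn3, pacemaker channels, had 0 in each normal library and stood at 19.9 and 7.31 and at 6.21 and 3.65 in the tumour pair (adjusted p = 0.0259 and 0.0269). Trpv6, an epithelial calcium entry channel, stood at 124 and 91.3 in the normal prostates and at 0.455 and 2.50 in the tumours, and fell by 5.57 log2 units (SE 0.53, adjusted p = 0.0195). Itpr3, an intracellular calcium release channel, fell from 17.9 and 15.9 to 0.0940 and 2.32 (log2 difference -3.23, SE 0.65, adjusted p = 0.0371), but not with FPKM as deposited (adjusted p = 0.0617).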

How the data were processed

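RNA-seq covered 2 normal prostates and 2 TRAMP tumours, per the labels' protocols. The authors deposited 1 Cufflinks table per library with FPKM and its confidence bounds, per the file headers. TopHat2 2.0.8, Trim Galore, Cuffdiff and Cufflinks (both 2.1.1) and the build mm10 are named per the submitters' processing notes. No source used here gives their settings or annotation.

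Of 24883 rows, 27 whose names had become dates were left out and 280 repeated names were summed. Positions are those of the tables, counted from 1. Libraries were scaled by median-of-ratios factors from 11469 genes above 0 in all 4. Genes whose unscaled FPKM reached 1 in 2 or more libraries were tested on log2(scaled FPKM + 1), with limma 3.58.1 in R 4.3.3, with an intensity trend, two-sided (residual degrees of freedom 2, prior 2.85). The script was tested on simulated data. An exact permutation test of 2 against 2 cannot go below p = 0.333. Fragments were implied from interval widths taken as 2 standard deviations of a count, and 71.1 to 72.5% of rows with 1 start group and 0.9 to 20 implied fragments lay within 0.1 of a whole number. Intervals cover counting and assignment error only.

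The members and lists were chosen with earlier results of these data known. Genes were named if past the threshold, highest of their family in either group, high in 1 tumour alone, among the 5 largest differences that did not pass with groups apart and at least 4-fold, or on a list of 15 well-known channels, of which Scn2a matched no name; a few family members, neighbours and partners were added after their values were seen. Some genes that the rule names are not reported here. Alternatives were other scalings, filters, a pseudocount of 0.1, no trend, voom on implied fragments and leaving out each library.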

Additional observations from a re-analysis of the deposited data

How the results depend on the processing

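Of the 18 channel genes called, 6 (Cacna2d1, Cacng4, Cacng7, Kcnab2, Kcnj3 and Kcnk3) were called in all 8 settings that changed the scaling, filter, pseudocount or test with all 4 libraries, 6 were lost in 1 or 2 of them and 6 in 3 or more. All 18 kept their sign wherever they were tested, which is no test of stability. The groups did not overlap in any of the 18. Of the 15 higher genes, 14 met the filter in the tumours alone, so a turned sign was hardly possible. Channel genes higher and lower numbered 22 and 1 with FPKM as deposited, 20 and 1 scaled by FPKM totals that omit genes holding over 1% of a library, 8 and 3 by quantile normalization, 20 and 1 with a pseudocount of 0.1, 5 and 1 without the filter (111 tested), 13 and 2 with a filter of 0.3, 14 and 3 without the intensity trend and 16 and 2 by voom. Over all genes they were 3681 and 427 with FPKM as deposited, 2537 and 554 with the sum scaling and 245 and 249 without the filter. With 1 library left out, the channel genes called ranged from 0 to 3 higher and from 0 to 6 lower, and all genes from 0 to 2170 higher and from 0 to 3405 lower. The 0 counts came without a normal prostate, when 1338 higher and 1096 lower or 1350 and 1004 genes had an unadjusted p under 0.05. Without tumour 1, 22 channel genes were tested, and without tumour 2, 20; the lone sample is then assumed to vary like the other group.

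Signs turned for Cacna1d by quantile normalization (-0.11) and without normal 1 (-0.097), for Cacna1h by quantile normalization (-0.40), by voom (-0.17), without normal 1 (-0.40) and without tumour 2 (-0.38), for Cacnb3 with FPKM as deposited (0.15), for Kcnj2 by quantile normalization (-0.14), with a pseudocount of 0.1 (-0.074), by voom (-0.27) and without tumour 2 (-0.89), and for Kcnq1 without tumour 1 (0.74). With 1 library left out the values ran up to 0.72 for Cacna1d, 0.47 for Cacna1h and 1.19 for Kcnj2, and down to -1.72 for Kcnq1. The cause was not tested. Depth limits the low channel genes: a normal value on under 3 implied fragments is no measured level.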

Other observations

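Some other genes of membrane excitability, outside the channel families above, also differed. Over all genes tested, 9.85% were higher and 8.27% were lower (28.0% and 3.24% with FPKM as deposited). Of 25 transmitter-gated channel genes 14 were tested, 6 rose, 0 fell and 8 did not pass, and 7 of the 14 reached the filter through the tumours alone. Of 27 ion pumps and exchangers 20 were tested, 4 rose, 0 fell and 16 missed the threshold (unscaled FPKM gave 9 and 0). Of these 20, 5 reached the filter through the tumours alone. Of 15 epithelial sodium and anion channel genes 10 were tested, 1 rose and 2 fell, and 1 of the 10 reached the filter through the tumours alone. The falls were those of Ano6, a calcium-activated lipid scramblase, from 33.2 and 35.8 to 8.36 and 8.03 (adjusted p = 0.0261), and of Clcn7, a lysosomal chloride exchanger, from 30.1 and 35.4 to 10.9 and 10.1 (adjusted p = 0.0359). Both calls were lost with FPKM as deposited (adjusted p = 0.0538 and 0.137).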
